A study of Rattus norvegicus with 16 samples.

Results

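Mesenchymal stromal cells (MSCs) conditioned with Pol1, a medium that holds the macrophage-polarizing factors lipopolysaccharide (LPS) and interferon gamma (IFNγ), were compared with MSCs conditioned with M0CM, the medium that resting macrophages had conditioned. The comparison used the 4 Pol1 libraries and the 4 M0CM libraries, 8 of the 16 RNA sequencing libraries of the study, and was paired by animal, since the same 4 rats (numbered 2, 3, 4 and 8 in the labels) gave the MSCs of each of the 4 conditions. The MSCs came from the bone marrow of adult female wild-type Sprague-Dawley rats, had been sorted as CD29+ and CD45- cells at an early passage, and were exposed for 24 h. Per the labels, Pol1 was D10, the standard growth medium of the MSCs, with 100 ng/ml LPS and 20 ng/ml IFNγ, and its label names no conditioning by macrophages. M0CM was medium taken from resting macrophages that had received neither factor, and D10 alone was the baseline, whose values stand beside the others where they help to place a difference.

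The medium itself limits what the comparison separates. The study's methods describe the polarizing medium on an RPMI base with M-CSF and with more IFNγ than the labels state, whereas the labels give D10, which has a DMEM base, and M0CM was a spent RPMI medium while Pol1 was fresh. The effects of LPS and IFNγ and those of the base medium, of M-CSF, of depleted nutrients and of resting macrophage products cannot be told apart here. LPS and IFNγ were given together, so the share of either factor cannot be told apart either.

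IFNγ binds a receptor made of the IFNGR1 and IFNGR2 chains, and the JAK kinases bound to it signal to genes with GAS elements, which turns on IRF1 and other regulators that in turn act through ISRE elements. LPS is handed by LBP and CD14 to TLR4 with its partner MD-2, and the adaptors below TLR4 activate NF-kB and, through interferon beta, a further round of interferon signaling. MSCs exposed to inflammatory cytokines are known for the release of chemokines and of immunomodulatory enzymes and ligands, and for the display of MHC molecules.

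Library depth was alike in both conditions, with 25097631 to 28075391 counts in the Pol1 libraries and 24055829 to 27863079 in the M0CM libraries. Levels are given as CPM, the counts of a gene per 1000000 counts of the library in tested genes, scaled by TMM (trimmed mean of M values), and values of single libraries are listed in the order of rats 2, 3, 4 and 8. The stromal genes Thy1 and Cd44 were expressed in every library, with 1197 ± 108 CPM in Pol1 MSCs and 1156 ± 136 CPM in M0CM MSCs for Thy1 (mean ± SD, n = 4 in each condition, here and below) and 230.5 ± 31.2 CPM in Pol1 MSCs and 212 ± 76.9 CPM in M0CM MSCs for Cd44. Ptprc, which encodes CD45, had no count in any Pol1 library and 0.279, 0.500, 0.423 and 0.204 CPM in M0CM MSCs. Deviations from the condition means were shared between libraries of the same rat (Pearson's r across genes 0.593 to 0.658), so the rat was kept as a block in the test. Between different rats r was -0.493 to 0.180. Deviations sum to 0 within a condition, so these low values follow in part from the same-rat values and are no separate evidence.

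Conditioning with Pol1 rather than M0CM was followed by rises and falls in like numbers of genes, and the largest differences were rises. Of 13556 genes tested, 1823 (13.4%) were higher and 1768 (13%) were lower in Pol1 MSCs at an adjusted p below 0.05 (edgeR quasi-likelihood test, Benjamini-Hochberg), which is 26.5% in all. By fitted fold change 776 genes rose and 518 fell at least 2-fold, 215 rose and 47 fell at least 8-fold, and 68 rose and 2 fell at least 64-fold. Genes that rose took 18.1 to 21.7% of the counts in Pol1 libraries and 10.1 to 11.3% in M0CM libraries, while genes that fell took 12.1 to 15.8% in Pol1 libraries and 20.6 to 24.1% in M0CM libraries. The call was the same way in all 4 rats for 1787 of the genes that rose and for 1737 of those that fell. Without the rat as a block the test called 1136 higher and 769 lower, and without rat 4 it called 1323 higher and 1140 lower. In bulk RNA, a change in the share of a type of cell and a change of the RNA per cell cannot be told apart.

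**Figure D1:**
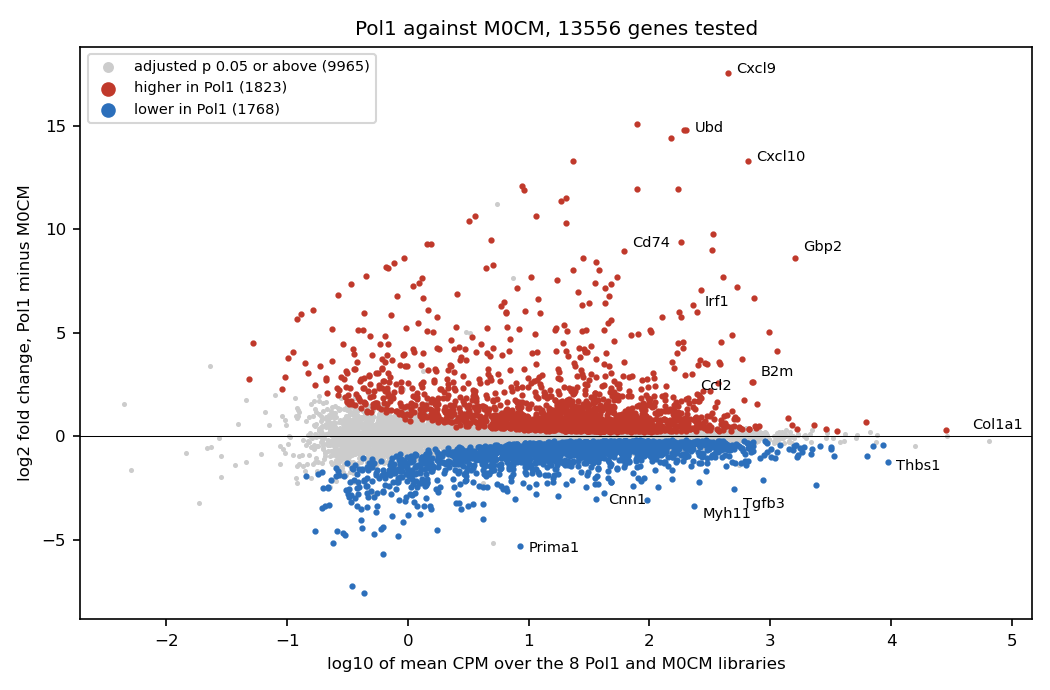
Each point is 1 of 13556 tested genes, with the log10 of its mean CPM over the 8 libraries on the x axis and the log2 fold change of Pol1 over M0CM on the y axis. Red points are the 1823 genes that were higher and blue points the 1768 that were lower at adjusted p below 0.05, and the red points reach farther from 0 than the blue ones.

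Both media were also set against D10 in the same fit. It called 2203 genes higher and 2192 lower in Pol1 MSCs (16.3% and 16.2%), and 107 higher and 42 lower in M0CM MSCs (0.789% and 0.310%). The comparisons share libraries and are given side by side only. Groups are said not to overlap where each Pol1 library lay on the same side of each M0CM library, which held for 23.2% of all tested genes.

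Promoter sequences of 8 genes are shown because the results turn on their members: a chemokine, a regulator, a GTPase, an inhibitor, a light chain and an NF-kB inhibitor that rose, and the genes Srf and Egr1 that fell. Each is the 250 bases before the annotated start in the rat build GRCr8, from RefSeq, 5′ to 3′ on the strand of the gene, and capitals mark matches to ISRE (GAAA, any 2 bases and GAAA or, on the other strand, TTTC, any 2 bases and TTTC), GAS (TTCNNNGAA, the same on both strands), NF-kB (GGGA, any 2 bases and TTCC or, on the other strand, GGAA, any 2 bases and TCCC) or the CArG box bound by SRF. They were picked after the scan as examples that hold a match.
Cxcl10 (chr14:15988816-15989065, plus strand; 1 ISRE and 3 NF-kB matches, a pair of them overlapping): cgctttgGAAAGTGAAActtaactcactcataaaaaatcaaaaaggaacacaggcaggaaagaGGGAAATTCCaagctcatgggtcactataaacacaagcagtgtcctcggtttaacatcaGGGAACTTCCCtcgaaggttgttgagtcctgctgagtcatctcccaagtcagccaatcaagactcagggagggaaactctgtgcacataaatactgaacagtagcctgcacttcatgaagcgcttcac
Irf1 (chr10:38417685-38417934, plus strand; 1 GAS match): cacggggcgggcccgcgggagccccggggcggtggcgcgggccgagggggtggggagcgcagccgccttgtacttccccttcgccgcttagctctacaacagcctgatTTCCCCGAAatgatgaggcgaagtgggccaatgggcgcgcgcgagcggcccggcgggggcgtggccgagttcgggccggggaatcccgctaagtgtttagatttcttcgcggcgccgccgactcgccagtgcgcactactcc
Igtp (chr10:42874797-42875046, plus strand; 1 GAS and 1 ISRE match): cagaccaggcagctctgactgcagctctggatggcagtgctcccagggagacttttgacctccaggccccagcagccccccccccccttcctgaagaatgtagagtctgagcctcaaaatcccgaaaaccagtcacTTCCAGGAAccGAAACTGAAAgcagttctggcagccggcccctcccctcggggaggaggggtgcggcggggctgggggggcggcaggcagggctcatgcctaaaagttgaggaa
Socs1 (chr10:5389324-5389573, plus strand; 1 GAS and 2 overlapping ISRE matches): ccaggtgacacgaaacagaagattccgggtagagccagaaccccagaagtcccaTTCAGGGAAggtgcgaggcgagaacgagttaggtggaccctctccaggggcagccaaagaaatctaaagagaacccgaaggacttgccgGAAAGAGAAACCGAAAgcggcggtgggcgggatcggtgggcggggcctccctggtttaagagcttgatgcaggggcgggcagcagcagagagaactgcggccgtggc
B2m (chr3:129549080-129549329, plus strand; 1 ISRE and 1 NF-kB match): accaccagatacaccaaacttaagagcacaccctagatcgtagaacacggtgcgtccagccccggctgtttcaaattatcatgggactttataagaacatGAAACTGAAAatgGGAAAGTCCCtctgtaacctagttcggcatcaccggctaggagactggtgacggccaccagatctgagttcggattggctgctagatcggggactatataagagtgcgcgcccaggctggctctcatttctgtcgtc
Nfkbia (chr6:78597073-78597322, minus strand; 1 NF-kB match): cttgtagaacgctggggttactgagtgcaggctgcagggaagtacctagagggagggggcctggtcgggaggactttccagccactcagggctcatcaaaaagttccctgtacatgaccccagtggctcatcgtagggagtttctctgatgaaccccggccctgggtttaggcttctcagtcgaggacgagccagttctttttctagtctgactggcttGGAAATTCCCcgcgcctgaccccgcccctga
Srf (chr9:21923826-21924075, plus strand; 2 CArG matches): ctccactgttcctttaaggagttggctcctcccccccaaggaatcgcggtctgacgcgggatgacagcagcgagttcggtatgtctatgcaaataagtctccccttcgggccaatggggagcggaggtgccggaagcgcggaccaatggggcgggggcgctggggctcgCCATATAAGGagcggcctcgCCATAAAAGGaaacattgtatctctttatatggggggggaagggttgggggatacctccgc
Egr1 (chr18:26736828-26737077, plus strand; 2 CArG matches): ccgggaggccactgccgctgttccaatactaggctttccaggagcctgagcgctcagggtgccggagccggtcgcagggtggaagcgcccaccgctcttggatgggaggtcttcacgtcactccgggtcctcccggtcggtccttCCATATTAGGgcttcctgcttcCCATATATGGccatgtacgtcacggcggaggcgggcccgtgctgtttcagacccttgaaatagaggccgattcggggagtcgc

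Over the whole table, 9362 tested genes matched a promoter by symbol. An ISRE match was present in 42 of 144 promoters (29.2%) of genes that rose at least 8-fold, in 96 of 1332 (7.21%) of all genes that rose, in 16 of 1269 (1.26%) of genes that fell, in 242 of the 9362 (2.585%) of all tested genes, and in 3.29% of all 27457 promoters of the table. A GAS match was found in 13.9%, 7.51%, 4.81%, 5.83% and 7.52% of the same sets, and an NF-kB match in 7.64%, 2.78%, 0.946%, 1.37% and 1.07%. The CArG box was found in 26 of 1269 promoters (2.05%) of all genes that fell and in 13 of 349 (3.72%) of genes that fell at least 2-fold, against 1.23% of tested genes and 1.501% of all promoters. Among contractile genes that fell it was found in 3 of 17 promoters, and a GAS match was likewise found in 3 of the 17. These shares describe letters in a window and carry no test, and they do not show that a factor was bound.

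Genes of the LPS receptor and its adaptors rose in part. Of 19 tested members of the list, 9 rose and 1 fell, against 13.4% and 13% of all tested genes, with a median log2 fold change of 0.21 against -0.01 over all tested genes. The same shares of all tested genes, 13.4% higher and 13% lower, are the background of each list count below. Tlr2, the receptor for bacterial lipopeptides, stood at 25.3, 103, 120.0 and 78.9 CPM in Pol1 MSCs, against 2.43, 6.15, 7.36 and 3.47 CPM in M0CM MSCs (log2 fold change 4.01, SE 0.261, adjusted p = 4.93e-08). Every Pol1 library lay above every M0CM library, and the rat 2 library was the lowest within Pol1. Tlr4, which binds LPS, averaged 23.2 ± 11.8 CPM in Pol1 MSCs and 12.4 ± 5.06 CPM in M0CM MSCs (log2 fold change 0.86, adjusted p = 0.00551), and was higher in each rat although the groups overlapped. Irak3, an inhibitor of signaling below the Toll-like receptors, averaged 134 ± 56.9 CPM in Pol1 MSCs and 42.6 ± 9.48 CPM in M0CM MSCs (log2 fold change 1.61, adjusted p = 5.41e-06). The LPS carriers Cd14 and Lbp did not pass the test, with Cd14 at 7.91 ± 1.78 CPM in Pol1 MSCs and 7.81 ± 1.20 CPM in M0CM MSCs (adjusted p = 0.967) and Lbp at 199.7 ± 134 CPM in Pol1 MSCs and 166 ± 63.6 CPM in M0CM MSCs (adjusted p = 0.871). Lbp averaged 59.4 ± 37.3 CPM in D10, and both Pol1 and M0CM were above it (log2 fold changes over D10 1.665 and 1.57, adjusted p = 0.00198 and 0.0415). Cd14 averaged 4.69 ± 1.09 CPM in D10 and was not called against D10 in Pol1 or M0CM (adjusted p = 0.0937 and 0.372).

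The IFNγ receptor chains did not pass the test, whereas Stat2 and Stat3 were higher. Ifngr1 averaged 68.4 ± 18.7 CPM in Pol1 MSCs and 58.6 ± 11.4 CPM in M0CM MSCs (log2 fold change 0.21, SE 0.151, adjusted p = 0.340), and Ifngr2 averaged 23.1 ± 2.30 CPM in Pol1 MSCs and 22.9 ± 2.06 CPM in M0CM MSCs (adjusted p = 0.921). Against D10, Pol1 was higher for Ifngr1 (log2 fold change of Pol1 over D10 0.46, adjusted p = 0.0323) and not called for Ifngr2 (adjusted p = 0.168). Stat2, a subunit of the complex that binds ISRE elements, stood at 507, 476, 451 and 416 CPM in Pol1 MSCs, against 40.0, 52.5, 41.3 and 36.2 CPM in M0CM MSCs (log2 fold change 3.45, SE 0.102, adjusted p = 1.40e-11), with no overlap. Stat3, the transducer of interleukin 6 family signals, averaged 589 ± 56.7 CPM in Pol1 MSCs and 286 ± 32.1 CPM in M0CM MSCs (log2 fold change 1.04, adjusted p = 1.96e-06), and the kinase gene Jak2 averaged 222 ± 60.7 CPM in Pol1 MSCs and 114 ± 21.8 CPM in M0CM MSCs (log2 fold change 0.95, adjusted p = 7.12e-04).

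Interferon regulatory factors rose almost without exception. In this list 8 of 9 tested members rose and none fell, with a median log2 fold change of 2.16. Irf1, an activator of many interferon-induced genes, stood at 497, 522, 461 and 453 CPM in Pol1 MSCs, against 9.49, 9.04, 5.53 and 7.18 CPM in M0CM MSCs (log2 fold change 5.98, SE 0.160, adjusted p = 5.25e-12), a 63.1-fold difference. Irf8, known from myeloid cells, stood at 61.5, 84.5, 48.0 and 89.9 CPM in Pol1 MSCs, against 0.359, 0.577, 0.176 and 0.612 CPM in M0CM MSCs (log2 fold change 7.40, SE 0.269, adjusted p = 1.29e-10). Irf7, which amplifies interferon responses, averaged 135 ± 4.21 CPM in Pol1 MSCs and 4.59 ± 0.654 CPM in M0CM MSCs (log2 fold change 4.91, adjusted p = 2.28e-09), and Irf9, the DNA-binding partner of STAT2, averaged 51.9 ± 2.64 CPM in Pol1 MSCs and 13.9 ± 0.722 CPM in M0CM MSCs (log2 fold change 1.90, adjusted p = 1.24e-09). Batf2, a partner of IRF1, held 41.8, 38.4, 42.8 and 40.6 CPM in Pol1 MSCs and 1 count over the 4 M0CM libraries (4249.6-fold, 95% counting interval 762 to 167886). For none of these 5 factors did the groups overlap.

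Inhibitors that feed back on the same pathway rose as well, although Socs2 fell. Socs1, which blocks JAK kinases, stood at 103, 119, 80.3 and 82.6 CPM in Pol1 MSCs, against 0.758, 0.923, 0.317 and 0.449 CPM in M0CM MSCs (log2 fold change 7.35, SE 0.231, adjusted p = 2.59e-11), and Socs3 averaged 57.9 ± 22.6 CPM in Pol1 MSCs and 12.9 ± 1.04 CPM in M0CM MSCs (log2 fold change 2.07, adjusted p = 2.36e-05). Usp18, which removes ISG15 and restrains the type I interferon receptor, averaged 23.6 ± 5.84 CPM in Pol1 MSCs and 0.231 ± 0.0338 CPM in M0CM MSCs (log2 fold change 6.64, adjusted p = 5.59e-10). Socs2, known for the control of growth hormone signaling, had 0.122, 0.108, 0.102 and 0.0355 CPM in Pol1 MSCs, against 0.558, 1.27, 1.48 and 0.735 CPM in M0CM MSCs (log2 fold change -3.39, SE 0.542, adjusted p = 3.55e-04), and averaged 1.96 ± 0.762 CPM in D10. The list as a whole had 7 of 12 tested members higher and 1 lower.

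**Figure D2:**
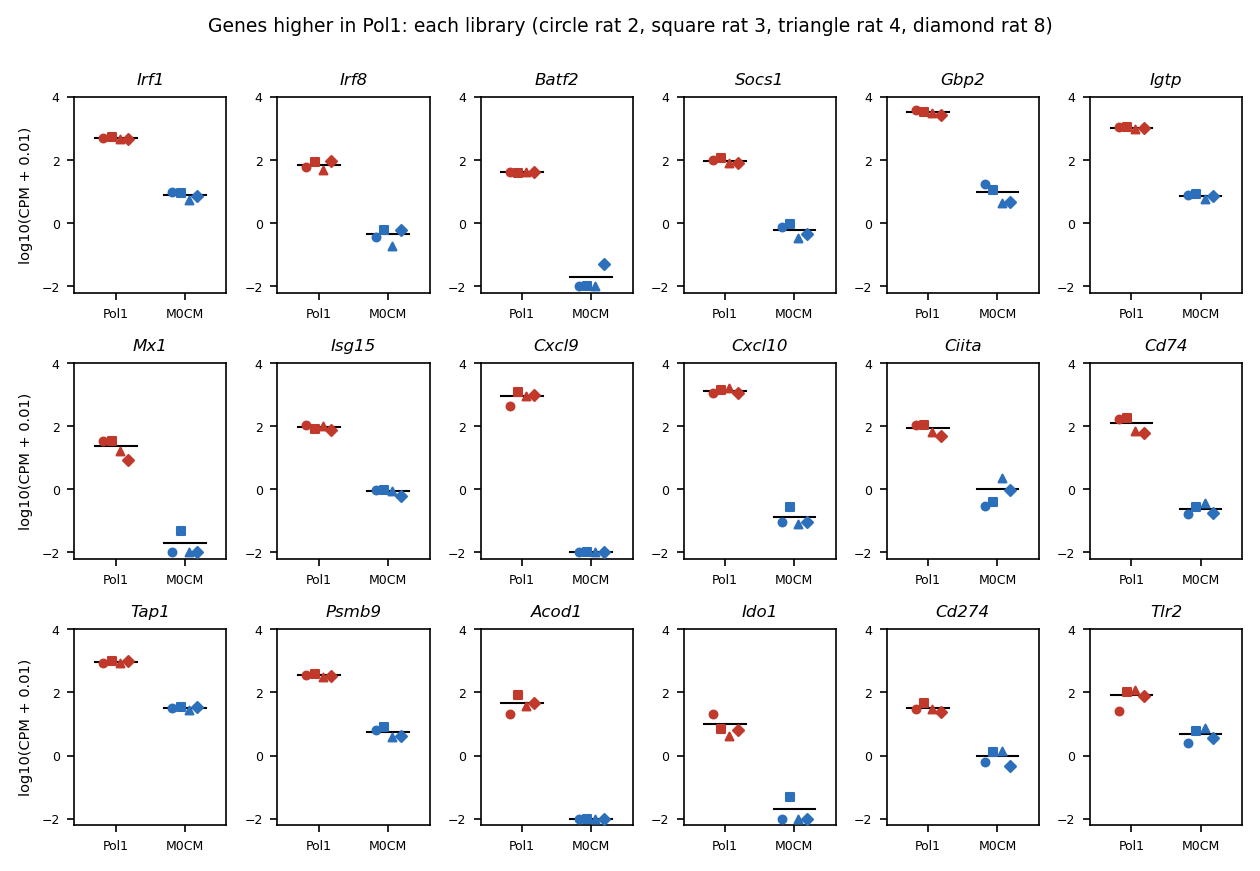
Levels of 18 genes that rose, as log10 of CPM + 0.01 on a shared y axis, in Pol1 (red) and M0CM (blue), with 1 point for each library, its shape giving the rat, and a bar at the log of the mean. In each panel all 4 Pol1 points lie above all 4 M0CM points, and points at -2 are libraries with no count.

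Interferon-induced GTPases, which attack the membranes of vacuoles that hold pathogens, formed the list with the largest median (log2 fold change 8.17). Of 12 tested members 11 rose and none fell, and their summed level was 7092 to 8569 CPM in Pol1 libraries against 228 to 242 CPM in M0CM libraries. Gbp2, a guanylate-binding protein, stood at 3965, 3259.7, 3007 and 2634 CPM in Pol1 MSCs, against 17.4, 10.9, 4.26 and 4.82 CPM in M0CM MSCs (log2 fold change 8.63, SE 0.318, adjusted p = 1.37e-10). Igtp, an immunity-related GTPase, stood at 1129, 1082, 946 and 1069 CPM in Pol1 MSCs, against 7.62, 8.38, 5.81 and 6.98 CPM in M0CM MSCs (log2 fold change 7.21, SE 0.142, adjusted p = 9.25e-13). Gbp1 had 357, 276, 261 and 318 CPM in Pol1 MSCs and 1 count over the 4 M0CM libraries (31311-fold, 95% counting interval 5619 to 1236755). Gbp5, Gbp7 and Ifi47 averaged 809 against 4.07 CPM, 664 against 1.31 CPM and 665 against 0.808 CPM in Pol1 and M0CM MSCs. Members of this family are similar in sequence, and reads that map to more than 1 place were not counted, so the level of each member is uncertain.

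Antiviral effectors behaved likewise, with 38 of 40 tested members higher, none lower and a median log2 fold change of 3.62. Rsad2, which encodes viperin, an enzyme that makes a chain-terminating nucleotide, stood at 234, 269.7, 63.0 and 65.6 CPM in Pol1 MSCs, against 0.120, 0.0384, 0 and 0 CPM in M0CM MSCs (log2 fold change 11.92, SE 0.354, adjusted p = 1.49e-11). Isg15, a ubiquitin-like modifier, averaged 91.6 ± 14.6 CPM in Pol1 MSCs and 0.844 ± 0.164 CPM in M0CM MSCs (log2 fold change 6.76, adjusted p = 3.55e-10), and Ifit1, which binds viral RNA, averaged 71.9 ± 31.1 CPM in Pol1 MSCs and 0.216 ± 0.179 CPM in M0CM MSCs (log2 fold change 8.42, adjusted p = 1.14e-09). Mx1, a dynamin-like GTPase that blocks viruses, had 33.2, 34.6, 16.5 and 8.39 CPM in Pol1 MSCs against 1 count in M0CM libraries (2367-fold, 95% counting interval 424 to 93523). Parp14, an ADP-ribosyltransferase, was at 1866, 2181, 1897 and 1705 CPM in Pol1 MSCs, against 67.1, 62.9, 54.5 and 49.2 CPM in M0CM MSCs (log2 fold change 5.04, SE 0.160, adjusted p = 2.72e-11), and Ifitm3, a membrane protein that blocks viral fusion, rose less, with 318 ± 64.2 CPM in Pol1 MSCs and 164 ± 21.9 CPM in M0CM MSCs (log2 fold change 0.94, adjusted p = 0.00415). Among cytosolic sensors of nucleic acid 10 of 13 tested members rose and none fell. Zbp1, a sensor of Z-form nucleic acid, had 29.7, 47.3, 38.2 and 31.7 CPM in Pol1 MSCs and 1 count in M0CM libraries (3840.1-fold, 95% counting interval 689 to 151713), while Ddx58 and Ifih1, which sense viral RNA, averaged 49.5 against 8.80 CPM and 47.0 against 11.5 CPM in Pol1 and M0CM MSCs. Ifnb1, the gene of interferon beta, had no count in any library of either condition.

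Chemokines that draw activated T cells were among the largest rises. Cxcl9, a ligand of CXCR3, stood at 453, 1253, 909 and 983 CPM in Pol1 MSCs and had no count in any M0CM library, so it was at least 31628-fold higher when M0CM is set to 3 counts over its 4 libraries together. Cxcl10, another CXCR3 ligand, stood at 1114, 1375, 1634 and 1099.5 CPM in Pol1 MSCs, against 0.0797, 0.269, 0.0705 and 0.0816 CPM in M0CM MSCs (log2 fold change 13.30, SE 0.324, adjusted p = 2.47e-12). Cxcl11, the remaining CXCR3 ligand, stood at 294, 527, 412 and 383 CPM in Pol1 MSCs against 1 count over the M0CM libraries (42327-fold, 95% counting interval 7596 to 1671878). These ligands were traces in D10 as well, with 0.419 ± 0.0809 CPM in D10 for Cxcl9, 0.629 ± 0.299 CPM in D10 for Cxcl10 and 0.343 ± 0.142 CPM in D10 for Cxcl11, but M0CM MSCs held still less, with 0, 13 and 1 counts over the 4 M0CM libraries against 48, 71 and 40 over the 4 D10 libraries (adjusted p = 0.0336, 0.0297 and 0.00721). Against D10 the log2 fold changes of Pol1 were 11.01 for Cxcl9, 11.02 for Cxcl10 and 10.15 for Cxcl11, smaller than those against M0CM. Across the list of CXC and CX3C chemokines 9 of 13 tested members rose and none fell.

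Of 10 tested CC chemokines 5 rose, none fell and 5 did not pass the test, and 8 more were below the filter on low counts. Ccl2 and Ccl7, which draw monocytes, rose over a level that M0CM MSCs already held. Ccl2 stood at 299, 448, 458 and 393 CPM in Pol1 MSCs, against 35.2, 94.9, 46.0 and 36.5 CPM in M0CM MSCs (log2 fold change 3.02, SE 0.345, adjusted p = 1.74e-05), and Ccl7 at 435, 605, 543 and 486 CPM in Pol1 MSCs, against 36.2, 130.3, 37.8 and 22.2 CPM in M0CM MSCs (log2 fold change 3.51, SE 0.473, adjusted p = 8.10e-05). In both genes the rat 3 library was the highest of the M0CM group, and no libraries overlapped. Ccl2 averaged 20.1 ± 14.2 CPM in D10 and Ccl7 15.7 ± 14.7 CPM in D10. Cxcl16 and the membrane chemokine Cx3cl1 rose, with 75.2 ± 13.9 CPM in Pol1 MSCs and 10.1 ± 2.48 CPM in M0CM MSCs for Cxcl16 (log2 fold change 2.91, adjusted p = 1.13e-08) and 50.7, 145, 314 and 98.7 CPM in Pol1 MSCs, against 1.48, 2.65, 30.6 and 0.939 CPM in M0CM MSCs for Cx3cl1 (log2 fold change 4.92, adjusted p = 4.30e-05). Ccl5, a chemokine for T cells, reached only 1.18, 2.66, 0.342 and 2.24 CPM in Pol1 MSCs, against 1 count in M0CM libraries (166-fold, 95% counting interval 29.5 to 6610.4).

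Other chemokines rose less or were not called. Cxcl1, which draws neutrophils, stood at 35.0, 60.0, 73.7 and 35.2 CPM in Pol1 MSCs, against 10.7, 13.3, 11.2 and 3.14 CPM in M0CM MSCs (log2 fold change 2.48, SE 0.369, adjusted p = 1.94e-04), and Cxcl2 stayed at traces in both conditions (0.244 against 0.0977 CPM in Pol1 and M0CM MSCs, adjusted p = 0.185). Ccl20, a ligand of CCR6, stood at 6.81, 24.7, 19.4 and 15.03 CPM in Pol1 MSCs, against 5.42, 16.4, 4.72 and 1.96 CPM in M0CM MSCs and did not pass the test (adjusted p = 0.0795), although it was higher in each rat. Ccl20 averaged 1.36 ± 1.31 CPM in D10 (log2 fold change of Pol1 over D10 3.72, adjusted p = 4.25e-04, and of M0CM over D10 2.38, adjusted p = 0.106). Cxcl12, the niche chemokine of the marrow, averaged 385 ± 189 CPM in Pol1 MSCs and 346 ± 236 CPM in M0CM MSCs (log2 fold change 0.34, adjusted p = 0.188) and was lowest in rats 4 and 8 in each condition. Cxcl12 averaged 203 ± 154 CPM in D10 (log2 fold change of Pol1 over D10 1.13, adjusted p = 2.60e-04, and of M0CM over D10 0.79, adjusted p = 0.0507).

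Of 22 tested cytokines and colony-stimulating factors 8 rose (36.4%) and 2 fell (9.09%), against 13.4% and 13% of all tested genes. Il6, an inflammatory cytokine, did not pass the test. It stood at 4.42, 19.9, 31.6 and 21.5 CPM in Pol1 MSCs, against 7.30, 15.3, 11.4 and 9.63 CPM in M0CM MSCs (log2 fold change 0.66, SE 0.320, adjusted p = 0.154), with rat 2 lower and the other rats higher in Pol1. Il6 averaged 5.08 ± 1.51 CPM in D10, and Pol1 was above D10 (log2 fold change of Pol1 over D10 1.81, adjusted p = 9.15e-04). The log2 fold change of M0CM over D10 was 1.15 (adjusted p = 0.149). Il1b had 3 counts over the Pol1 libraries and 7 over the M0CM libraries, and Tnf had 22 against 1 (20.8-fold, 95% counting interval 3.36 to 859; adjusted p = 0.0133). Csf3, the granulocyte growth factor, had 10 counts over the Pol1 libraries against 1 over the M0CM libraries (9.46-fold, 95% counting interval 1.34 to 410.4; adjusted p = 0.0205), a call that was lost in the fit to the 8 libraries (adjusted p = 0.115). Ptgs2, the inducible cyclooxygenase, stood at 17.0, 24.1, 14.9 and 6.75 CPM in Pol1 MSCs, against 30.7, 10.6, 11.5 and 16.2 CPM in M0CM MSCs (log2 fold change -0.17, SE 0.471, adjusted p = 0.842) and moved in opposite directions in different rats. Csf1, the macrophage growth factor, stood at 1054, 1294, 1247 and 1012 CPM in Pol1 MSCs, against 411, 479, 379.8 and 325 CPM in M0CM MSCs (log2 fold change 1.55, SE 0.132, adjusted p = 9.86e-07), and Tnfsf10, which encodes TRAIL, had 18.8, 28.9, 9.19 and 14.1 CPM in Pol1 MSCs and no count in M0CM libraries, at least 609.9-fold higher. Spp1, the gene of osteopontin, averaged 461 ± 175 CPM in Pol1 MSCs and 201 ± 52.2 CPM in M0CM MSCs (log2 fold change 1.13, adjusted p = 0.00260), and stood at 393 ± 101 CPM in D10 (log2 fold change of M0CM over D10 -0.94, adjusted p = 0.0797).

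NF-kB genes rose by small amounts. Of 16 tested members 13 rose and none fell, with a median log2 fold change of 0.57, and the largest rise was that of an inhibitor, Nfkbia. Nfkbia, which holds NF-kB in the cytoplasm, averaged 32.0 ± 9.64 CPM in Pol1 MSCs and 10.0 ± 1.91 CPM in M0CM MSCs (log2 fold change 1.65, adjusted p = 5.41e-06), Tnip1 averaged 281 ± 82.5 CPM in Pol1 MSCs and 131 ± 16.8 CPM in M0CM MSCs (log2 fold change 1.06, adjusted p = 6.70e-05) and Tnfaip3, the gene of A20, averaged 9.10 ± 2.03 CPM in Pol1 MSCs and 3.83 ± 1.55 CPM in M0CM MSCs (log2 fold change 1.26, adjusted p = 0.00407). The subunit gene Nfkb1 averaged 109 ± 22.6 CPM in Pol1 MSCs and 65.5 ± 6.77 CPM in M0CM MSCs (log2 fold change 0.73, adjusted p = 1.42e-05), and Relb did not pass (adjusted p = 0.210).

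Receptors and decoys of cytokines were mixed, with 13 of 24 tested members higher and 5 lower. Il18bp, the secreted decoy of interleukin 18, stood at 104, 111, 91.3 and 69.4 CPM in Pol1 MSCs, against 2.27, 2.04, 1.76 and 1.71 CPM in M0CM MSCs (log2 fold change 5.59, SE 0.154, adjusted p = 6.81e-12). Il15ra, the chain that presents interleukin 15, had 11.5, 14.5, 8.57 and 6.11 CPM in Pol1 MSCs and 3 counts in M0CM libraries (350.5-fold, 95% counting interval 119.6 to 1702), while Il15 itself averaged 3.22 ± 0.233 CPM in Pol1 MSCs and 2.33 ± 0.585 CPM in M0CM MSCs (adjusted p = 0.272). Il1rl1, the receptor of interleukin 33, fell to 62.4, 72.5, 116 and 104 CPM in Pol1 MSCs, against 192, 499, 495 and 536 CPM in M0CM MSCs (log2 fold change -2.21, SE 0.199, adjusted p = 1.72e-06). Il1rn, the interleukin 1 receptor antagonist, averaged 25.9 ± 26.2 CPM in Pol1 MSCs and 81.9 ± 88.2 CPM in M0CM MSCs (log2 fold change -1.61, adjusted p = 0.0317), ranged widely between rats and lost the call without rat 2 (adjusted p = 0.137) or rat 3 (adjusted p = 0.0795). It averaged 24.3 ± 32.8 CPM in D10. Neither Pol1 (log2 fold change over D10 0.36, adjusted p = 0.643) nor M0CM (log2 fold change over D10 1.97, adjusted p = 0.101) was called against D10.

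Transcripts of genes for antigen presentation through MHC class I rose, from the receptor chains to the peptide supply. In this list 21 of 25 tested members rose and none fell, with a median log2 fold change of 2.61. B2m, the light chain shared by class I molecules, stood at 1288, 1254, 1139 and 1242 CPM in Pol1 MSCs, against 218, 225, 175 and 194 CPM in M0CM MSCs (log2 fold change 2.60, SE 0.117, adjusted p = 1.03e-09). Tap1, a subunit of the peptide transporter, stood at 859, 998, 878 and 986 CPM in Pol1 MSCs, against 31.2, 34.5, 27.9 and 34.5 CPM in M0CM MSCs (log2 fold change 4.86, SE 0.141, adjusted p = 1.20e-11), and Tapbp, which loads peptides, averaged 488 ± 33.7 CPM in Pol1 MSCs and 38.5 ± 7.11 CPM in M0CM MSCs (log2 fold change 3.67, adjusted p = 3.13e-10). Nlrc5, the activator of class I genes, averaged 84.5 ± 3.35 CPM in Pol1 MSCs and 0.623 ± 0.480 CPM in M0CM MSCs (log2 fold change 7.17, adjusted p = 5.40e-09). RT1-S3, a heavy chain gene of the rat RT1 complex, averaged 249.9 ± 27.1 CPM in Pol1 MSCs and 4.61 ± 0.706 CPM in M0CM MSCs (log2 fold change 5.76, adjusted p = 3.95e-12). Heavy chain genes of this complex are close copies, and reads that map to more than 1 place were not counted, so its level is uncertain.

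Class II genes rose in MSCs that held almost none of their transcripts in M0CM. Ciita, the master activator of class II genes, stood at 112, 111, 66.6 and 50.6 CPM in Pol1 MSCs, against 0.279, 0.385, 2.33 and 0.939 CPM in M0CM MSCs (log2 fold change 6.41, SE 0.491, adjusted p = 2.95e-07), and Cd74, the invariant chain, at 169, 187, 72.1 and 60.6 CPM in Pol1 MSCs, against 0.160, 0.269, 0.352 and 0.163 CPM in M0CM MSCs (log2 fold change 8.93, SE 0.447, adjusted p = 3.02e-09). RT1-Da, an alpha chain, had 61.3, 70.1, 15.1 and 17.7 CPM in Pol1 MSCs against 3 counts over the M0CM libraries (1388-fold, 95% counting interval 475 to 6732), and RT1-Bb, a beta chain, had 5.39, 19.2, 2.42 and 1.71 CPM in Pol1 MSCs against none (at least 248-fold higher). Of the list, 8 of 11 tested members rose and none fell, and 6 more were below the filter on low counts. Of the 11, 4 held 0 to 3 counts over the libraries of a condition. The filter admits such a gene only through libraries where it is higher, so the direction of its difference was in part set beforehand. The rat 2 and rat 3 libraries held the highest levels of Ciita and Cd74 within Pol1. Ctss, a lysosomal protease that trims the invariant chain and that macrophages also express, averaged 8.46 ± 2.89 CPM in Pol1 MSCs and 0.527 ± 0.254 CPM in M0CM MSCs (log2 fold change 4.01, adjusted p = 1.46e-08).

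The inducible proteasome subunits and their activator rose. Psmb9 stood at 354, 388, 319 and 319.5 CPM in Pol1 MSCs, against 6.58, 7.84, 3.77 and 4.25 CPM in M0CM MSCs (log2 fold change 5.98, SE 0.195, adjusted p = 3.43e-11), and Psmb8 and Psmb10 averaged 359 against 20.1 CPM and 329 against 14.7 CPM in Pol1 and M0CM MSCs. The activator genes Psme1 and Psme2 had log2 fold changes of 2.79 and 3.59 (adjusted p = 2.01e-08 and 1.38e-08). Of the constitutive core 7 of 11 tested members rose, with a median log2 fold change of 0.41, and Psmb5, the catalytic subunit that Psmb8 replaces, averaged 32.2 ± 2.09 CPM in Pol1 MSCs and 36.0 ± 1.67 CPM in M0CM MSCs (adjusted p = 0.502). Ubd, a ubiquitin-like tag for the proteasome, had 520.4, 553, 253 and 222 CPM in Pol1 MSCs against 1 count in M0CM libraries (39624-fold, 95% counting interval 7111 to 1565095).

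Where a list is given as holding none that fell, the count of members lower at an unadjusted p under 0.05 and the count called lower by DESeq2 were 0, other than in the cytosolic sensors (1 and 1), the CXC and CX3C chemokines (1 and 0) and glycolysis (2 and 0). Where none rose, the same counts of members that were higher were 1 and 1 for mitosis, 1 and 0 for oxidative phosphorylation, and 0 for collagens and fatty acid synthesis. Members with 0 to 3 counts over a condition, which pass the filter only through other libraries, also stood in further lists. They numbered 3 in the CC chemokines and 2 each in the GTPases, the antiviral effectors and the CXC and CX3C chemokines.

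**Figure D3:**
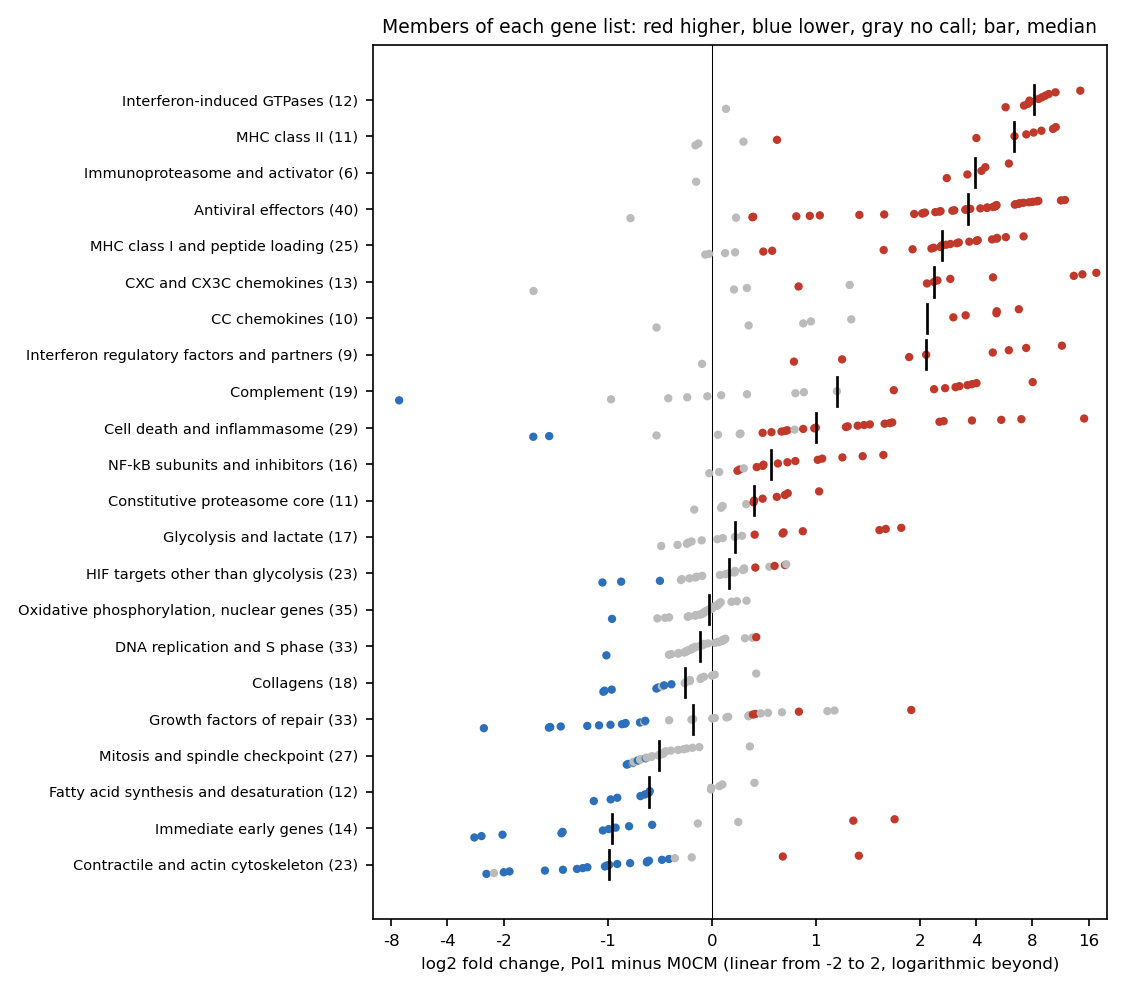
Each row is a gene list, with the number of tested members in parentheses, and each point is the log2 fold change of Pol1 over M0CM of 1 member, red if higher, blue if lower and gray without a call, with a bar at the median of the list. The axis is linear between -2 and 2 and logarithmic beyond, the values are fitted ones also for genes with no count in a condition, and the medians drawn run from 8.17 for the GTPases to -0.99 for the contractile genes.

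Immunomodulatory genes of MSCs moved in both directions. Acod1, which makes itaconate, had 20.3, 81.0, 37.0 and 47.2 CPM in Pol1 MSCs and no count in M0CM libraries (at least 1629-fold higher). Ido1, which degrades tryptophan, had 21.4, 7.002, 4.13 and 6.29 CPM in Pol1 MSCs against 1 count (966-fold, 95% counting interval 173 to 38208), and Nos2, the inducible nitric oxide synthase, had only 1.14, 7.43, 1.67 and 2.31 CPM in Pol1 MSCs against none (at least 110.0-fold higher). Cd274, the gene of the checkpoint ligand PD-L1, stood at 29.5, 45.5, 29.4 and 24.5 CPM in Pol1 MSCs, against 0.598, 1.31, 1.34 and 0.449 CPM in M0CM MSCs (log2 fold change 5.15, SE 0.306, adjusted p = 1.96e-08). Ptges, the last enzyme of prostaglandin E2 synthesis, averaged 18.2 ± 6.46 CPM in Pol1 MSCs and 4.76 ± 2.25 CPM in M0CM MSCs (log2 fold change 1.94, adjusted p = 0.00605), and Tnfaip6, which encodes TSG-6, averaged 6.90 ± 3.80 CPM in Pol1 MSCs and 9.22 ± 6.29 CPM in M0CM MSCs (adjusted p = 0.289). The list counted 11 of 25 tested members higher and 3 lower.

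Nt5e, the gene of CD73, which makes adenosine and is a surface marker of MSCs, was among those that fell. It stood at 9.77, 20.6, 16.6 and 17.4 CPM in Pol1 MSCs, against 36.9, 64.2, 83.6 and 132 CPM in M0CM MSCs (log2 fold change -2.22, SE 0.213, adjusted p = 3.21e-06), and at 14.9, 36.2, 27.9 and 33.8 CPM in D10. Against this baseline Nt5e was lower in Pol1 MSCs, in each rat (log2 fold change of Pol1 over D10 -0.78, adjusted p = 0.0108), and higher in M0CM MSCs (log2 fold change of M0CM over D10 1.44, adjusted p = 0.00391). Cd200, a ligand that restrains myeloid cells, averaged 2.28 ± 0.424 CPM in Pol1 MSCs and 7.43 ± 2.52 CPM in M0CM MSCs (log2 fold change -1.67, adjusted p = 1.15e-05). Of 8 tested adhesion molecules for leukocytes 3 rose, 1 fell and 4 did not pass the test. Vcam1 stood at 217, 355, 144 and 66.4 CPM in Pol1 MSCs, against 16.4, 17.5, 1.76 and 0.898 CPM in M0CM MSCs (log2 fold change 5.05, SE 0.441, adjusted p = 1.22e-06), Icam1 averaged 227 ± 63.6 CPM in Pol1 MSCs and 127 ± 45.0 CPM in M0CM MSCs (log2 fold change 0.86, adjusted p = 0.00710), and Alcam fell, with 41.8 ± 14.6 CPM in Pol1 MSCs and 61.3 ± 22.6 CPM in M0CM MSCs (log2 fold change -0.54, adjusted p = 0.0329), a call that was lost without rat 2 (adjusted p = 0.11) or rat 4 (adjusted p = 0.106). Vcam1 was lowest in rats 4 and 8 in both conditions.

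In the whole list of complement genes 9 of 19 tested members were higher and 1 lower. Genes of the classical pathway and their inhibitor were among those that rose, and the rise was not particular to that pathway. C1s, a protease of the first complement component, averaged 676 ± 152 CPM in Pol1 MSCs and 71.4 ± 49.95 CPM in M0CM MSCs (log2 fold change 3.60, adjusted p = 6.95e-06), and Serping1, the inhibitor of that component, stood at 221, 369, 436 and 243 CPM in Pol1 MSCs, against 12, 27.3, 33.4 and 10.7 CPM in M0CM MSCs (log2 fold change 4.02, SE 0.281, adjusted p = 1.06e-07). C4b averaged 75.7 ± 32.8 CPM in Pol1 MSCs and 0.294 ± 0.403 CPM in M0CM MSCs (log2 fold change 8.02, adjusted p = 1.80e-09), and C3, the component on which the pathways meet, stood at 68.8, 414, 78.3 and 25.7 CPM in Pol1 MSCs, against 16.7, 71.8, 12.6 and 1.18 CPM in M0CM MSCs (log2 fold change 2.73, adjusted p = 7.36e-04), with its highest value in rat 3 in both conditions. C5ar1, a receptor found on myeloid cells, had no count in Pol1 libraries and 72 in M0CM libraries, at least 25.4-fold lower.

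The list of cell death and inflammasome genes, which holds both promoters and inhibitors of cell death, had 22 of 29 tested members higher and 2 lower. Casp1 stood at 51.1, 43.6, 55.2 and 46.5 CPM in Pol1 MSCs, against 6.74, 2.69, 2.68 and 3.06 CPM in M0CM MSCs (log2 fold change 3.80, SE 0.233, adjusted p = 2.53e-08), Gsdmd, the pore former that it cleaves, averaged 207 ± 32.9 CPM in Pol1 MSCs and 62.3 ± 13.1 CPM in M0CM MSCs (log2 fold change 1.74, adjusted p = 1.89e-07), and Mlkl, the effector of necroptosis, averaged 87.8 ± 9.97 CPM in Pol1 MSCs and 13.7 ± 2.13 CPM in M0CM MSCs (log2 fold change 2.68, adjusted p = 6.85e-10). Birc3, an inhibitor of apoptosis, averaged 13.4 ± 3.58 CPM in Pol1 MSCs and 2.27 ± 0.337 CPM in M0CM MSCs (log2 fold change 2.55, adjusted p = 9.76e-08). Apol11a, of the apolipoprotein L family, had 138, 194, 169 and 136 CPM in Pol1 MSCs and no count in M0CM libraries, at least 5546-fold higher. Nlrp3, the sensor of an inflammasome, and Pmaip1, a promoter of apoptosis, fell, with 5.71 ± 4.91 CPM in Pol1 MSCs and 15.6 ± 10.4 CPM in M0CM MSCs (log2 fold change -1.56, adjusted p = 2.66e-05) and 12.6 ± 1.27 CPM in Pol1 MSCs and 41.9 ± 5.13 CPM in M0CM MSCs (log2 fold change -1.72, adjusted p = 1.08e-07).

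In glucose metabolism 7 of 17 tested members rose and none fell, with a median log2 fold change of 0.22. Hk2, which phosphorylates glucose, stood at 141, 204, 181 and 153 CPM in Pol1 MSCs, against 45.1, 59.7, 54.3 and 52.6 CPM in M0CM MSCs (log2 fold change 1.67, SE 0.0868, adjusted p = 4.37e-09), Pfkp, a phosphofructokinase, averaged 133 ± 22.3 CPM in Pol1 MSCs and 37.4 ± 5.53 CPM in M0CM MSCs (log2 fold change 1.82, adjusted p = 8.34e-08), and Slc16a1, a lactate carrier, averaged 319 ± 96.1 CPM in Pol1 MSCs and 103 ± 26.5 CPM in M0CM MSCs (log2 fold change 1.61, adjusted p = 3.21e-06). Ldha, which makes lactate, stood at 660.4, 1036, 1286 and 989 CPM in Pol1 MSCs, against 1001, 1039, 1347 and 1219 CPM in M0CM MSCs (log2 fold change -0.23, SE 0.188, adjusted p = 0.423), and Pgk1 averaged 671 ± 91.0 CPM in Pol1 MSCs and 789.5 ± 76.8 CPM in M0CM MSCs (adjusted p = 0.259). The baseline was lower for both, as Ldha averaged 580.4 ± 111 CPM in D10 (log2 fold change of M0CM over D10 0.98, adjusted p = 0.0232) and Pgk1 373 ± 29.5 CPM in D10 (log2 fold change of M0CM over D10 1.08, adjusted p = 0.00279). Hif1a averaged 274 ± 61.8 CPM in Pol1 MSCs and 248 ± 29.8 CPM in M0CM MSCs (adjusted p = 0.546). Its mean in D10 was 172 ± 28.0 CPM (log2 fold change of Pol1 over D10 0.67, adjusted p = 0.0023, and of M0CM over D10 0.54, adjusted p = 0.0993). Of 23 tested HIF targets outside glycolysis 3 rose and 3 fell (13.04% each way), close to the 13.4% and 13% of all tested genes. Of 35 nuclear genes of oxidative phosphorylation none rose and 1 fell, and none of 13 mitochondrially encoded genes was called in either direction by edgeR at the adjusted threshold, with 1 at an unadjusted p under 0.05 and 0 called by DESeq2.

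Transcripts of fatty acid synthesis were in part lower in Pol1 than in M0CM MSCs, and those of enzymes of NAD and tryptophan use were higher. Of 12 tested genes of fatty acid synthesis and desaturation 7 fell and none rose (median log2 fold change -0.60), among them Fads1, a desaturase, with 126 ± 28.0 CPM in Pol1 MSCs and 237 ± 52.0 CPM in M0CM MSCs (log2 fold change -0.91, adjusted p = 7.40e-06), and Srebf1, the factor that drives these genes, with 147 ± 67.6 CPM in Pol1 MSCs and 274 ± 69.3 CPM in M0CM MSCs (log2 fold change -0.97, adjusted p = 5.27e-04). Srebf1 averaged 121 ± 27.8 CPM in D10 and Fads1 187 ± 39.8 CPM in D10. The summed level of the fatty acid list was 1890 to 3242 CPM in Pol1 libraries, 3187 to 4485 CPM in M0CM libraries and 1955 to 3796 CPM in D10 libraries. Lpl, the lipoprotein lipase, stood at 12.8, 4.17, 3.21 and 8.99 CPM in Pol1 MSCs, against 59.4, 28.4, 15.8 and 31.4 CPM in M0CM MSCs (log2 fold change -2.29, SE 0.185, adjusted p = 5.30e-07). Nampt, which salvages nicotinamide for NAD, stood at 462, 623, 568 and 543 CPM in Pol1 MSCs, against 42.5, 51.8, 47.2 and 55.2 CPM in M0CM MSCs (log2 fold change 3.48, SE 0.109, adjusted p = 2.56e-11), and Wars, the tryptophanyl-tRNA synthetase that IFNγ is known to induce, averaged 1225 ± 195 CPM in Pol1 MSCs and 199 ± 34.4 CPM in M0CM MSCs (log2 fold change 2.62, adjusted p = 1.17e-07). Tfrc, the transferrin receptor through which cells take up iron, fell to 22.5, 12.2, 15.1 and 16.5 CPM in Pol1 MSCs, against 129, 62.8, 64.9 and 63.0 CPM in M0CM MSCs (log2 fold change -2.23, SE 0.240, adjusted p = 1.02e-05). Sod2, the mitochondrial superoxide dismutase, averaged 676 ± 237 CPM in Pol1 MSCs and 348 ± 71.6 CPM in M0CM MSCs (log2 fold change 0.93, adjusted p = 0.00246), with M0CM MSCs already far above the 78.2 ± 23.5 CPM in D10 (log2 fold change of M0CM over D10 2.17, adjusted p = 3.81e-04).

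Contractile and cytoskeletal genes had a median log2 fold change of -0.99, with 18 of 23 tested members lower and 2 higher. Cnn1, calponin of smooth muscle, stood at 37.5, 24.8, 36.2 and 48.8 CPM in Pol1 MSCs, against 166, 230.1, 202 and 200.5 CPM in M0CM MSCs (log2 fold change -2.47, SE 0.277, adjusted p = 1.46e-05), with no overlap. Myh11, the smooth muscle myosin, stood at 12.7, 16.3, 63.7 and 60.2 CPM in Pol1 MSCs, against 85.4, 380.4, 887 and 359 CPM in M0CM MSCs (log2 fold change -3.36, SE 0.424, adjusted p = 4.38e-05), and rats 2 and 4 lay at opposite ends of the M0CM group. Its name came from the pathway annotation, so Myh11 stands outside the count of 23. Actg2, a smooth muscle actin, averaged 33.0 ± 20.9 CPM in Pol1 MSCs and 128 ± 78.1 CPM in M0CM MSCs (adjusted p = 3.80e-08), and was lower in each rat while the groups overlapped. Tagln, transgelin, averaged 1349.6 ± 242 CPM in Pol1 MSCs and 2294 ± 221 CPM in M0CM MSCs (log2 fold change -0.79, adjusted p = 0.00136), and Srf, the factor that drives many of these genes through CArG boxes, stood at 47.9, 35.1, 43.2 and 53.3 CPM in Pol1 MSCs, against 90.9, 115, 148 and 136 CPM in M0CM MSCs (log2 fold change -1.43, SE 0.129, adjusted p = 1.70e-06). Des, the desmin gene, went the other way, with 40.5 ± 35.9 CPM in Pol1 MSCs and 16.04 ± 13.2 CPM in M0CM MSCs (log2 fold change 1.41, adjusted p = 2.55e-05).

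Of 12 tested targets of YAP and TEAD, factors that respond to stretch and stiffness, 5 fell, 1 rose and 6 did not pass the test. Cyr61, a matricellular protein, stood at 263, 304, 399 and 406 CPM in Pol1 MSCs, against 594, 875, 1081 and 1082 CPM in M0CM MSCs (log2 fold change -1.39, SE 0.132, adjusted p = 2.95e-06), and Ctgf averaged 2341 ± 761 CPM in Pol1 MSCs and 4438 ± 953 CPM in M0CM MSCs (log2 fold change -0.97, adjusted p = 0.0149), a call that was lost without rat 3 (adjusted p = 0.078) or rat 8 (adjusted p = 0.0564). Thbs1, thrombospondin, stood at 5189, 4547, 5498 and 7121 CPM in Pol1 MSCs, against 12049.5, 12879.8, 14336 and 13638 CPM in M0CM MSCs (log2 fold change -1.25, SE 0.209, adjusted p = 5.16e-04).

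Among 14 tested immediate early genes 10 fell and 2 rose, with a median log2 fold change of -0.96. Egr1, a zinc finger factor, stood at 40.2, 38.1, 49.1 and 18.7 CPM in Pol1 MSCs, against 156, 161, 136 and 118 CPM in M0CM MSCs (log2 fold change -2.03, SE 0.230, adjusted p = 1.62e-05), and at 50.1, 77.5, 67.8 and 49.8 CPM in D10; M0CM MSCs were thus above D10 MSCs (log2 fold change of M0CM over D10 1.24, adjusted p = 0.0177). Dusp1, a MAP kinase phosphatase, averaged 75.8 ± 15.4 CPM in Pol1 MSCs and 207 ± 49.7 CPM in M0CM MSCs (log2 fold change -1.45, adjusted p = 5.84e-06). Jun and Atf3 rose, with 53.9 ± 20.5 CPM in Pol1 MSCs and 20.5 ± 6.09 CPM in M0CM MSCs for Jun (log2 fold change 1.36, adjusted p = 3.06e-04) and 11.8 ± 1.84 CPM in Pol1 MSCs and 3.65 ± 1.745 CPM in M0CM MSCs for Atf3 (log2 fold change 1.76, adjusted p = 2.69e-06).

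**Figure D4:**
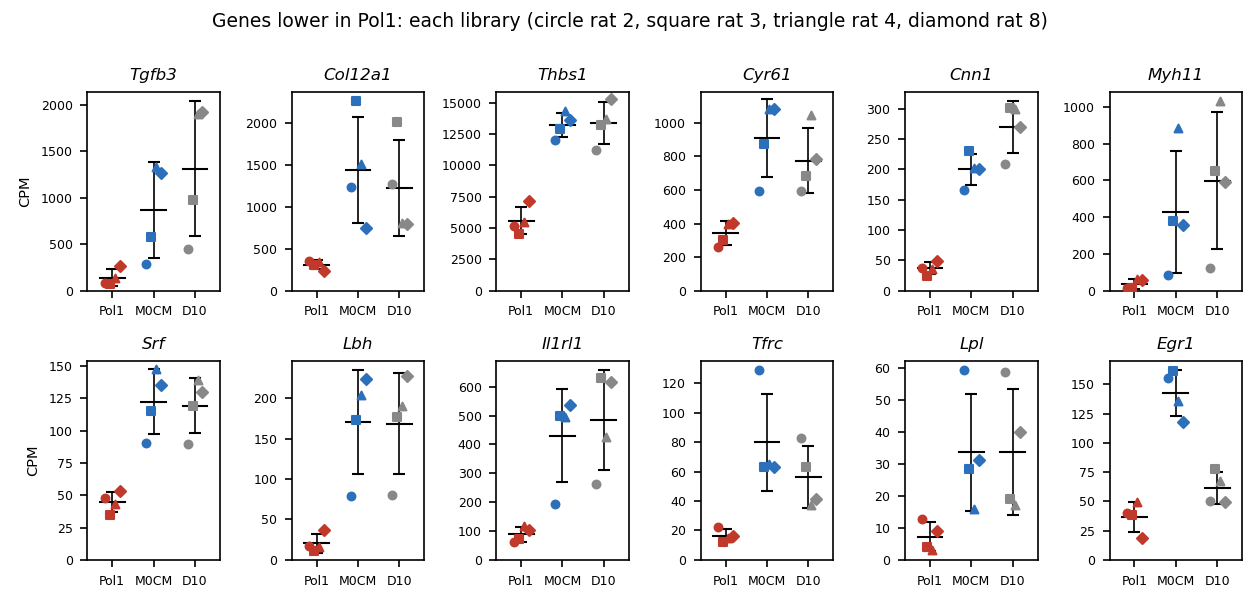
CPM of 12 genes that fell, on linear axes that start at 0, in Pol1 (red), M0CM (blue) and D10 (gray), with 1 point for each library, its shape giving the rat, a bar at the mean and whiskers of 1 SD (n = 4). Pol1 points lie low in each panel, M0CM and D10 points overlap in most, and Egr1 stands out with M0CM points between 118.0 and 161.4 CPM above all D10 points.

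Collagen genes fell in part while the most abundant chains did not pass the test. Of 18 tested collagens of the list 7 fell (38.9%, against 13% of all tested genes) and none rose. Col12a1 and Col4a3, which are given below and also fell, stand outside this count. Col1a1, the main chain of type I collagen, averaged 59077 ± 11817 CPM in Pol1 MSCs and 69909 ± 12376 CPM in M0CM MSCs (log2 fold change -0.25, adjusted p = 0.238), and Col1a2 averaged 29402 ± 7015 CPM in Pol1 MSCs and 28761 ± 6399.8 CPM in M0CM MSCs (adjusted p = 0.881). Col12a1, a collagen that sits on fibrils, fell to 356, 307, 344 and 240.4 CPM in Pol1 MSCs, against 1239, 2266, 1510.1 and 744 CPM in M0CM MSCs (log2 fold change -2.11, SE 0.228, adjusted p = 1.03e-05). Some proteases of the matrix rose, such as Mmp3, stromelysin, which stood at 22.0, 67.2, 62.3 and 105 CPM in Pol1 MSCs, against 7.22, 5.96, 13.4 and 6.45 CPM in M0CM MSCs (log2 fold change 2.86, SE 0.428, adjusted p = 2.03e-04), and Mmp9, a gelatinase, with 21.5 ± 14.4 CPM in Pol1 MSCs and 3.03 ± 1.55 CPM in M0CM MSCs (log2 fold change 2.85, adjusted p = 0.00105).

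Growth factors of repair fell more often than they rose, with 12 of 33 tested members lower (36.4%) and 4 higher (12.1%). Of all tested genes 13% were lower and 13.4% higher. Tgfb3, a TGF-beta ligand, stood at 85.5, 73.3, 139 and 270.2 CPM in Pol1 MSCs, against 283, 583, 1330.0 and 1268 CPM in M0CM MSCs (log2 fold change -2.55, SE 0.262, adjusted p = 6.29e-06), and at 453, 979.6, 1899 and 1927 CPM in D10. The groups did not overlap, with the highest Pol1 library, rat 8, just under the lowest M0CM library, rat 2. Pgf, placental growth factor, averaged 3.91 ± 2.36 CPM in Pol1 MSCs and 10.9 ± 5.01 CPM in M0CM MSCs (log2 fold change -1.57, adjusted p = 1.63e-04), and Pdgfd averaged 7.24 ± 2.45 CPM in Pol1 MSCs and 17.5 ± 8.80 CPM in M0CM MSCs (log2 fold change -1.20, adjusted p = 3.18e-05). Hgf, hepatocyte growth factor, stood at 18.7, 51.1, 9.94 and 6.47 CPM in Pol1 MSCs, against 7.93, 8.81, 1.06 and 3.59 CPM in M0CM MSCs (log2 fold change 1.92, SE 0.277, adjusted p = 1.52e-04) and was higher in each rat, with rat 3 the highest. Vegfa, the main angiogenic factor, averaged 339 ± 51.2 CPM in Pol1 MSCs and 257 ± 66.3 CPM in M0CM MSCs (log2 fold change 0.42, SE 0.137, adjusted p = 0.0358), a call that was lost without rat 2 (adjusted p = 0.0548), rat 3 (adjusted p = 0.213) or rat 4 (adjusted p = 0.104). Gdnf, a neurotrophic factor, averaged 2.49 against 1.62 CPM in Pol1 and M0CM MSCs and did not pass the test (adjusted p = 0.101).

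Signals of development were mixed, with 7 of 26 tested Wnt, BMP and Notch modulators higher and 7 lower. That is 26.9% each way, against 13.4% and 13% of all tested genes. Wnt4, a Wnt ligand, stood at 36.2, 59.8, 54.8 and 27.1 CPM in Pol1 MSCs, against 3.27, 5.58, 5.04 and 2.69 CPM in M0CM MSCs (log2 fold change 3.41, SE 0.172, adjusted p = 3.09e-09), and Nog, noggin, a binder of BMP ligands, averaged 11.2 ± 3.12 CPM in Pol1 MSCs and 0.818 ± 0.465 CPM in M0CM MSCs (log2 fold change 3.91, adjusted p = 4.19e-06). The receptor gene Notch1 rose with 31.9 ± 2.27 CPM in Pol1 MSCs and 9.98 ± 2.51 CPM in M0CM MSCs (log2 fold change 1.71, adjusted p = 5.02e-05), while Notch3, known from mural cells, fell with 26.7 ± 19.7 CPM in Pol1 MSCs and 81.2 ± 62.7 CPM in M0CM MSCs (log2 fold change -1.56, adjusted p = 0.00457). Of 16 tested genes of the bone, fat and cartilage lineages 3 rose (18.75%) and 5 fell (31.25%). Ibsp, the gene of bone sialoprotein, rose (1.79 ± 1.07 CPM in Pol1 MSCs and 0.168 ± 0.101 CPM in M0CM MSCs, log2 fold change 3.40, adjusted p = 0.00414), as did Spp1, while Runx2, the osteoblast factor, did not pass (23.5 ± 9.25 CPM in Pol1 MSCs and 30.7 ± 7.27 CPM in M0CM MSCs, adjusted p = 0.0701), whereas Pparg, the adipocyte factor, fell (1.54 ± 1.20 CPM in Pol1 MSCs and 3.57 ± 1.85 CPM in M0CM MSCs, adjusted p = 0.00355), as did Sox9, the cartilage factor (10.7 ± 6.03 CPM in Pol1 MSCs and 25.6 ± 13.2 CPM in M0CM MSCs, adjusted p = 7.74e-04).

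Genes of DNA replication were seldom called, while mitotic genes were lower at a share somewhat above that of all tested genes. Of 33 tested genes of DNA replication 1 rose and 1 fell (3.03% each way, against 13.4% and 13% of all tested genes). Of 27 mitotic genes 5 fell (18.5%) and none rose, with a median log2 fold change of -0.51 and the groups overlapping for each of the 27. The median over all tested genes was -0.01. By rat, the median log2 ratio of CPM + 1 over the mitotic genes was -0.95, -0.57, 0.026 and -0.30 in rats 2, 3, 4 and 8, so rat 4 did not share the shift. At an unadjusted p under 0.05 in edgeR 11 of the mitotic genes were lower and 1 higher. DESeq2 called 7 of them lower and 1 higher. Mki67, a marker of cycling cells, averaged 39.1 ± 30.6 CPM in Pol1 MSCs and 59.0 ± 31.6 CPM in M0CM MSCs (log2 fold change -0.76, adjusted p = 0.127), and Cdkn1a, the inhibitor p21, averaged 469.8 ± 154 CPM in Pol1 MSCs and 316 ± 119.8 CPM in M0CM MSCs (log2 fold change 0.59, adjusted p = 1.15e-04). Cdk1, the mitotic kinase, averaged 7.16 ± 4.14 CPM in Pol1 MSCs and 11.5 ± 4.97 CPM in M0CM MSCs (log2 fold change -0.80, adjusted p = 0.0202), a call that was lost without rat 2 (adjusted p = 0.134) or rat 3 (adjusted p = 0.0938).

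Of 12 tested surface markers of MSCs 4 fell, among them Nt5e, 1 rose, which was Vcam1, and 7 did not pass the test. Mcam, the gene of CD146, stood at 6.20, 2.19, 13.2 and 28.8 CPM in Pol1 MSCs, against 47.3, 25.1, 86.7 and 128 CPM in M0CM MSCs (log2 fold change -2.76, SE 0.217, adjusted p = 4.02e-07), and Cspg4, which encodes NG2, stood at 30.8, 29.4, 70.0 and 140.3 CPM in Pol1 MSCs, against 74.0, 71.5, 239.6 and 566 CPM in M0CM MSCs (log2 fold change -1.61, SE 0.246, adjusted p = 2.46e-04). For both genes the rats differed widely within a condition, the groups overlapped, and Pol1 was lower in each of the 4 rats. Thy1 did not pass (adjusted p = 0.8286), and Itgb1, the gene of CD29 on which the cells had been sorted, averaged 1744 ± 362 CPM in Pol1 MSCs and 2695 ± 574 CPM in M0CM MSCs (log2 fold change -0.62, adjusted p = 2.64e-04).

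The 12 largest falls among genes of at least 2 CPM held few members of the pathways above, other than Myh11. Prima1, which anchors acetylcholinesterase to membranes, stood at 0.0810, 0.0718, 0.273 and 1.17 CPM in Pol1 MSCs, against 0.598, 1.27, 40.8 and 24.0 CPM in M0CM MSCs (log2 fold change -5.30, SE 0.505, adjusted p = 3.11e-06), and its high values came from rats 4 and 8. Lbh, a transcription cofactor, stood at 16.8, 11.6, 16.1 and 37.4 CPM in Pol1 MSCs, against 79.2, 173, 204 and 224 CPM in M0CM MSCs (log2 fold change -3.07, SE 0.284, adjusted p = 2.30e-06), and Rtn4rl1, a relative of the Nogo receptor, stood at 0.284, 0.539, 0.512 and 0.604 CPM in Pol1 MSCs, against 3.19, 10.0, 9.97 and 8.29 CPM in M0CM MSCs (log2 fold change -3.98, SE 0.250, adjusted p = 3.31e-08). Spata18, linked to mitochondrial quality control, stood at 0.729, 0.826, 4.95 and 0.888 CPM in Pol1 MSCs, against 24.4, 12.04, 12.5 and 5.80 CPM in M0CM MSCs (log2 fold change -3.04, SE 0.690, adjusted p = 0.00468), and averaged 3.60 ± 2.03 CPM in D10 (log2 fold change of M0CM over D10 1.89, adjusted p = 0.225). Col4a3, Galnt18, Stac, Tmem204, Inpp4b, Stxbp5l and Susd5 completed the 12, with log2 fold changes between -3.54 (Col4a3) and -3.02 (Susd5).

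Transcripts of macrophages were present at traces in M0CM libraries, and 10 of 16 tested macrophage and monocyte markers were lower and 2 were higher in Pol1 MSCs, with a median log2 fold change of -1.89. Lyz2, lysozyme, stood at 0.203, 0.0359, 0.342 and 0.107 CPM in Pol1 MSCs, against 2.15, 2.65, 2.47 and 2.04 CPM in M0CM MSCs (log2 fold change -3.74, SE 0.480, adjusted p = 5.20e-05), and at 0, 0.0751, 0.0313 and 0.0953 CPM in D10. Lcp1, an actin bundler of leukocytes, averaged 0.147 ± 0.105 CPM in Pol1 MSCs and 3.32 ± 0.525 CPM in M0CM MSCs (log2 fold change -4.51, adjusted p = 4.65e-07), and Mrc1, the mannose receptor, averaged 0.0583 ± 0.0769 CPM in Pol1 MSCs and 1.20 ± 0.206 CPM in M0CM MSCs (log2 fold change -4.40, adjusted p = 3.00e-04). Each of the 4 M0CM libraries held them at a like level, and each Pol1 library lay lower. Itgb2, Laptm5, Coro1a, Cd53, Cd68 and Csf1r were also lower, with log2 fold changes of -4.13, -3.13, -1.91, -2.76, -1.87 and -1.49; the call of Cd68 was lost without rat 3, 4 or 8 and that of Csf1r without rat 8 (adjusted p = 0.057, 0.112, 0.103 and 0.0519). Cybb had 3 counts in Pol1 libraries and 126 in M0CM libraries (44.4-fold, 95% counting interval 14.8 to 218, lower in Pol1).

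Ptprc, Adgre1, Tyrobp, Clec7a, C1qa and C1qb had no count in any Pol1 library, and Cd163 had none in either condition. Over the M0CM libraries Ptprc held 37 counts, Adgre1 25, Tyrobp 9 and Clec7a 26, and C1qa and C1qb 1 count each, while Trem2 averaged 0.0447 against 0.342 CPM and Aif1 0.0753 against 0.0964 CPM in Pol1 and M0CM MSCs. The markers that were higher in Pol1 were Ctss and Mpeg1, with Mpeg1 at 4.61 ± 2.06 CPM in Pol1 MSCs and 0.240 ± 0.110 CPM in M0CM MSCs (log2 fold change 4.19, adjusted p = 1.87e-06), while Cd14, Fcer1g, Spi1 and Gpnmb were not called (adjusted p = 0.967, 0.228, 0.0984 and 0.0945). The summed level of the list was 93.2 to 205.3 CPM in Pol1 libraries, 84.2 to 142.4 CPM in M0CM libraries and 70.3 to 114.5 CPM in D10 libraries, most of it from Gpnmb, at 122 ± 44.2 CPM in Pol1 MSCs and 86.9 ± 20.5 CPM in M0CM MSCs. Myeloid genes that were lower in Pol1 elsewhere in the comparison, such as C5ar1 and Mmp12, the macrophage elastase (0.0380 ± 0.0441 CPM in Pol1 MSCs and 1.02 ± 0.228 CPM in M0CM MSCs, log2 fold change -4.72, adjusted p = 1.34e-04), moved with these markers, and the part of macrophage RNA in those differences was not tested.

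**Figure D5:**
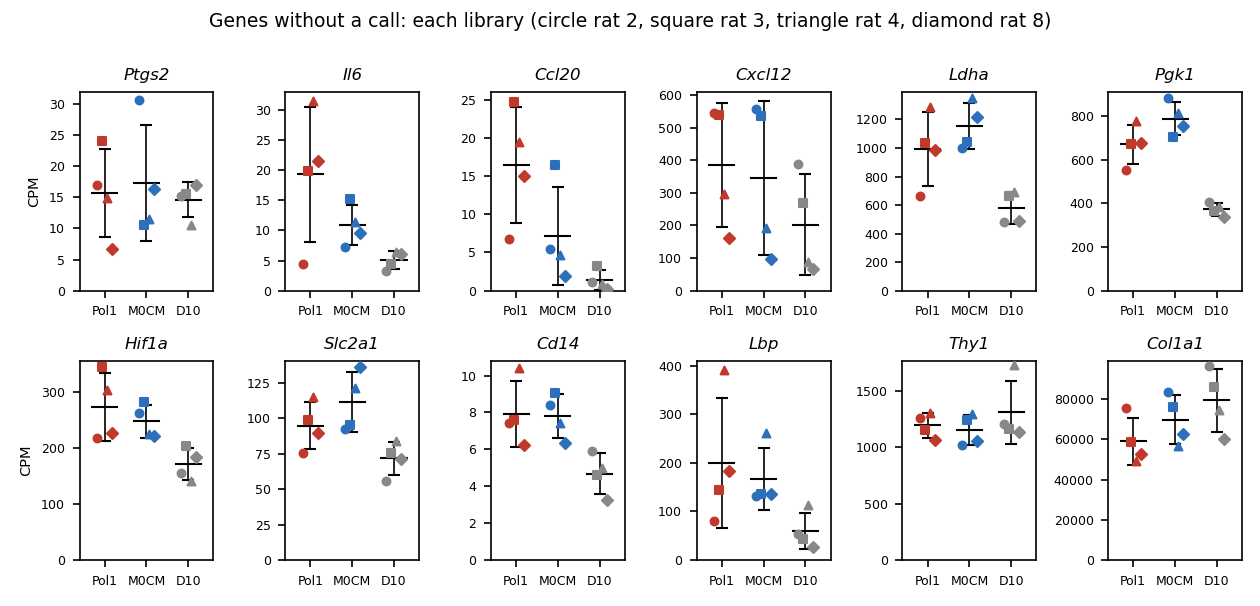
CPM of 12 genes without a call between Pol1 and M0CM, on linear axes that start at 0, in Pol1 (red), M0CM (blue) and D10 (gray), with 1 point for each library, its shape giving the rat, a bar at the mean and whiskers of 1 SD (n = 4). Pol1 and M0CM points overlap in each panel, and in Ldha and Pgk1 both lie mostly above the D10 points.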

How the data were processed

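Messenger RNA of bone marrow MSCs from 4 rats was sequenced after 24 h in 4 media, 16 libraries in all. The authors aligned paired reads to the rat genome with TopHat2 2.0.12 on Bowtie2 2.2.3 and counted them per gene with HTSeq 0.6.1, which leaves out reads that map to more than 1 place, so near-identical genes are uncertain. The kit named is one that does not mark strand and the strand setting is not given in the sources used here, so overlapping and antisense genes cannot be told apart. The deposited read counts of 26689 genes, not normalized, were the input of each test. The deposited FPKM values, which the authors scaled to gene length and depth, were not used in a test and are not printed. The columns of the authors' own comparisons (fold changes, p-values and calls) were not used.

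The 13556 genes that reached 10 counts in 4 libraries or more were fitted over all 16 libraries in edgeR 4.0.16 (R 4.3.3) with medium and rat as terms, TMM scaling, a quasi-likelihood F-test and Benjamini-Hochberg adjustment, called at adjusted p below 0.05, two-sided. The block rests on the labels, which give each rat the same number in each medium, and libraries of the same rat deviated together. The methods of the study state no block, and a fit without it is an alternative, as are fits to the 8 libraries only, without each rat, with library totals, with DESeq2 size factors, with other filters, and DESeq2 1.42.0. SE is the log2 fold change divided by the square root of F. CPM are counts per 1000000 in the tested genes after TMM. A gene with no count in a condition was set against a floor of 3 counts over its 4 libraries, and one with 1 to 3 counts got the ratio of CPM with an exact 95% interval, which cover counting error only. The script was tested on simulated data.

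Names came from the table (17307 genes), from gene numbers in its descriptions (104) and, for single genes, from its pathway annotation (383), which the table gives only beside genes the authors called, so that these were left out of list counts. 30 names at odds with that annotation were set aside. Genes named in the text were drawn from a rule, the 12 largest rises and falls of at least 2 CPM on average that moved alike in all 4 rats, genes marked as key in the lists, the 3 called members of smallest adjusted p in each direction of a list, and all macrophage markers. Members and lists were chosen with earlier results of these data known. Nothing says that cells of a rat were cultured more than once for a medium. With the rat as a block, p-values measure how far differences between media vary among the 4 animals. That spread was pooled over all 4 media and 16 libraries and is not that of Pol1 and M0CM alone. Promoters came from RefSeq (rat build GRCr8), were matched by symbol and were scanned in Python. Coordinates of the deposited table were not used. Some genes are not reported here.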

Additional observations from a re-analysis of the deposited data

Results flagged for a closer look

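In 23 of 357 groups of 4 libraries examined (each named gene with 12 counts or more in Pol1 or M0CM), 1 library stood so far from the other 3 that Dixon's test at 95% picked it out, where chance alone gives about 1 in 20, or 18. Values are CPM. Within Pol1, 1 library lay above the other 3 for C3 in rat 3 (414, against 25.7 to 78.3), Ctss in rat 3 (12.8, against 6.82 to 7.17), Ido1 in rat 2 (21.4, against 4.13 to 7.002), Ifngr1 in rat 3 (96.4, against 57.2 to 60.3), Runx2 in rat 2 (37.3, against 18.1 to 20.0), Spata18 in rat 4 (4.95, against 0.729 to 0.888) and Stxbp5l in rat 8 (2.203, against 0 to 0.239). Within Pol1, 1 library lay below the other 3 for Gbp7 in rat 2 (555, against 695 to 703), Ifi47 in rat 2 (549.9, against 688 to 713) and Tnf in rat 2 (0, against 0.239 to 0.287). Within M0CM, 1 library lay above the other 3 for Casp1 in rat 2 (6.74, against 2.68 to 3.06), Ccl7 in rat 3 (130.3, against 22.2 to 37.8), Cdk1 in rat 8 (18.9, against 8.04 to 9.72), Cx3cl1 in rat 4 (30.6, against 0.939 to 2.65), Cxcl10 in rat 3 (0.269, against 0.0705 to 0.0816), Lbp in rat 4 (262, against 132 to 137), Mmp3 in rat 4 (13.4, against 5.96 to 7.22), Psmb8 in rat 2 (34.9, against 13.2 to 16.2), Stac in rat 4 (12.2, against 4.27 to 4.46) and Tfrc in rat 2 (129, against 62.8 to 64.9). Within M0CM, 1 library lay below the other 3 for Il1rl1 in rat 2 (192, against 495 to 536), Mpeg1 in rat 3 (0.0769, against 0.279 to 0.317) and RT1-S3 in rat 8 (3.55, against 4.90 to 4.999). Rat 2 held 9 of these values, rat 3 6, rat 4 5 and rat 8 3.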

How the results depend on the processing

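Without the replicate block 1136 genes were higher and 769 lower in Pol1 MSCs, and with a minimum log2 fold change of 1 the counts were 776 and 518. Leaving out each rat in turn gave 1323 to 1572 higher and 1140 to 1436 lower, with the smallest counts without rat 4. Fits to the 8 libraries, with library totals, DESeq2 size factors, other filters on low counts or DESeq2 kept both counts within 1.5 times. Of 163 named genes called, 129 kept the call under all alternatives run and none of the others changed direction, while 33 lost it without the block and 7 without some rat. Some genes without a call changed sign around 0 (log2 fold changes). Cd14 was 0.0177 without the block and 0.00909 on the 8 libraries. Leaving out 1 rat gave -0.17 to 0.0762 for Cd14, -0.0361 to 0.0840 for Ifngr2, -0.0364 to 0.34 for Lbp, -0.64 to 0.19 for Ptgs2 and -0.0328 to 0.11 for Thy1. The cause was not tested. Depth limits genes of few counts: Il1b had 3 counts in the 4 Pol1 libraries and 7 in the 4 M0CM libraries, and Tnf had 22 and 1.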

Other observations

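Genes of the oxidative stress response had 6 of 20 tested members higher and none lower in Pol1 MSCs (0 lower at an unadjusted p under 0.05 in edgeR and 0 by DESeq2), among them Txn1, thioredoxin, with 221 ± 18.7 CPM in Pol1 MSCs and 94.3 ± 8.35 CPM in M0CM MSCs (log2 fold change 1.24, adjusted p = 5.97e-05), and Hmox1, heme oxygenase, with 210.3 ± 12.6 CPM in Pol1 MSCs and 126 ± 28.6 CPM in M0CM MSCs (log2 fold change 0.77, adjusted p = 9.28e-04), while Nqo1, a target of NRF2, averaged 80.0 ± 26.1 CPM in Pol1 MSCs and 73.1 ± 31.2 CPM in M0CM MSCs (adjusted p = 0.486). Of 15 tested genes of the unfolded protein response 5 fell and 1 rose, and Hspa5, the main chaperone of the endoplasmic reticulum, averaged 539 ± 59.0 CPM in Pol1 MSCs and 844 ± 48.2 CPM in M0CM MSCs (log2 fold change -0.66, adjusted p = 0.00307). The chaperone gene was lower in each of the 4 rats without overlap. Cp, ceruloplasmin, a ferroxidase, averaged 68.6 ± 31.8 CPM in Pol1 MSCs and 22.6 ± 13.8 CPM in M0CM MSCs (log2 fold change 1.70, adjusted p = 1.31e-06), and Slc11a1, a metal carrier of phagosomes, averaged 5.63 ± 1.19 CPM in Pol1 MSCs and 0.439 ± 0.112 CPM in M0CM MSCs (log2 fold change 3.67, adjusted p = 8.87e-07). Il13ra1, a receptor chain of interleukin 13, averaged 164 ± 34.8 CPM in Pol1 MSCs and 69.6 ± 8.38 CPM in M0CM MSCs (log2 fold change 1.23, adjusted p = 1.06e-06), and Mif, macrophage migration inhibitory factor, averaged 66.0 ± 14.98 CPM in Pol1 MSCs and 108 ± 10.6 CPM in M0CM MSCs (log2 fold change -0.73, adjusted p = 0.0127) and 44.3 ± 12.3 CPM in D10 (log2 fold change of M0CM over D10 1.32, adjusted p = 0.00577).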
